A study of Mus musculus with 53 samples.

Results

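The genes described here are 6 transcription factors of the trophoblast, the cells that build the placenta, namely Cdx2, Elf5, Gata3, Tfap2a, Tfap2c and Hand1, together with the placental homeobox gene Esx1. Their probe sets were chosen as those whose annotation held exactly 1 gene symbol equal to 1 of these 7 names. This gave 14 probe sets among 45037 on the array, for 7 genes among 18193, and each gene is led by whichever of its probe sets had the highest mean signal across the 53 arrays. Of the 7 genes, 6 passed the filter on low signals and were tested beside 13807 genes in all, whereas Elf5 did not pass.

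RNA was measured on Affymetrix arrays in mouse embryonic stem (ES) cells during differentiation by withdrawal of the cytokine LIF, and the question was what the loss of the polycomb proteins Ezh2 or Eed does to expression in undifferentiated and differentiating cells. ES cells labelled Eed-null were profiled at day 0 (5 arrays), day 2 (2 arrays) and day 6 (2 arrays). Ezh2-null ES cells were profiled at day 0 (6 arrays), day 2 (4 arrays), day 6 (5 arrays) and day 8 (2 arrays). Wild-type ES cells of the lines J1, CJ7 and E14tg1 were profiled at day 0 (7 arrays), those of J1 and CJ7 at day 2 (4 arrays) and day 6 (5 arrays), and those of CJ7 alone at day 8 (2 arrays). The other cell types were T-GFP-marked mesoendodermal cells (2 arrays), neuronal progenitors marked by Sox1-GFP (3 arrays), neuronal stem cells derived from such progenitors (2 arrays) and mouse embryonic fibroblasts, or MEF (2 arrays). The labels name no parental line for either mutant, so that genotype and line cannot be told apart. Mutant and wild-type cells had been grown on feeder fibroblasts that were depleted before harvest. The replicates are called biological without saying what separated them, and the p-values therefore measure only the spread between these samples. In these bulk RNA samples, fewer cells of a type and less RNA per cell cannot be told apart.

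In the embryo, Cdx2 and Gata3 act when the outer cells of the morula become trophectoderm, Tfap2c and Elf5 help to keep trophoblast stem cells in that state, and Hand1 drives the formation of trophoblast giant cells. Several of these genes also work in the embryo proper: Hand1 in lateral mesoderm and heart, Cdx2 in the posterior body, Tfap2a in neural crest and surface ectoderm, and Gata3 in many tissues. Polycomb repressive complex 2, of which Ezh2 is the histone methyltransferase and Eed a core subunit, methylates histone H3 at genes of lineages that ES cells do not use and is known for keeping many developmental regulators silent.

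The differences were uneven across days and genotypes. Esx1 reached 807 ± 97.4 signal units (SD, n = 2) in cells labelled Eed-null at day 6, against 50.4 ± 12.7 (SD, n = 5) in wild-type cells. Tfap2a was higher in both mutants than in wild-type cells at day 6, on average 287 and 227 signal units, against 93.8 in wild-type cells. Hand1 was higher in the labelled Eed-null cells before differentiation, and at day 6 its signal in Ezh2-null cells depended on which of the 2 sets of arrays described below the sample belonged to. Gata3 averaged 191 signal units in labelled Eed-null and 141 in Ezh2-null cells at day 6, against 87.6 in wild-type cells. On the log2 scale used for the tests, described below, both of these Gata3 differences were under 2-fold. Cdx2 rose in wild-type cells by day 6, and Elf5 stayed near the background of the arrays. Tfap2c fell in wild-type cells after LIF withdrawal, and its day 6 signal in Ezh2-null and wild-type cells also depended on the array set.

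The signals are the linear intensities deposited by the authors, with array medians between 50.5 and 63 signal units, and differences are given as log2 fold changes of the signal plus 32, a scale on which the change of dim genes is understated. A gene was called where limma's adjusted p was under 0.05 and the change at least 2-fold. Ezh2 itself was 214 ± 31.6 signal units (SD, n = 6) in Ezh2-null cells at day 0, against 1450 ± 247 (SD, n = 7) in wild-type cells, and was called lower in Ezh2-null cells on all 4 days. Eed measured 2960 ± 130 signal units (SD, n = 5) in the labelled Eed-null cells at day 0, against 2540 ± 276 (SD, n = 7) in wild-type cells, so that its RNA did not mark that genotype. The sources used here do not say which part of Eed the mutation alters, and the cells are called labelled Eed-null throughout. The arrays of days 2 and 6 fell into 2 sets, separated along the leading component of the differences between 2536 pairs of probe sets for the same gene, which held 41.7% of that variance. Samples 1 and 2 of wild-type and Ezh2-null cells belonged to the first set (8 arrays) and all other arrays of those days, including all labelled Eed-null ones, to the second (14 arrays). Among wild-type arrays the first set held only J1. The second held every CJ7 array of these days and J1 sample 3 of day 6. Set and line can thus hardly be told apart in wild-type cells. Arrays of day 0, day 8 and the other cell types were given no set and stayed in every fit within a set. They scored from -20 to 6.7 on that component, below the lowest second-set score of 16. Comparing them with second-set arrays, as every labelled Eed-null change from day 0 does, crosses that gap. Set and change cannot be told apart there. The sources used here do not say what the sets are, and their part in a result was not tested beyond the values within each set that stand beside it.

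Of the 7 genes, 5 had a promoter sequence in the RefSeq table of the build GRCm38.p6. The 250 bases before the annotated start are shown for Esx1 and Tfap2a, which were called higher in a mutant at day 6, for Gata3 and Cdx2, which rose with differentiation, and for Elf5, which stayed near background, each read 5′ to 3′ on its own strand with every CG dinucleotide in capitals.
Esx1 (chrX:137120327-137120576, minus strand): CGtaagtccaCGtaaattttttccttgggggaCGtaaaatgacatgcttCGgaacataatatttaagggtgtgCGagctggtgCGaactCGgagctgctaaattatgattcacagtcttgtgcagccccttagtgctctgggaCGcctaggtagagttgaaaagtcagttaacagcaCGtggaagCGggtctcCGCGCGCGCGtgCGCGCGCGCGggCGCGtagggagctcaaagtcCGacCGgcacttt
Gata3 (chr2:9878601-9878850, minus strand): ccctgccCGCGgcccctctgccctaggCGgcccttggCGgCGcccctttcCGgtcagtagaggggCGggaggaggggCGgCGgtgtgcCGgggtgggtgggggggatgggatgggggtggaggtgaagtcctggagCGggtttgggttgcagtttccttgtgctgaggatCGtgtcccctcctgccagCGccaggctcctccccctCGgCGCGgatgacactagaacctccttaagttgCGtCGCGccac
Tfap2a (chr13:40734921-40735170, minus strand): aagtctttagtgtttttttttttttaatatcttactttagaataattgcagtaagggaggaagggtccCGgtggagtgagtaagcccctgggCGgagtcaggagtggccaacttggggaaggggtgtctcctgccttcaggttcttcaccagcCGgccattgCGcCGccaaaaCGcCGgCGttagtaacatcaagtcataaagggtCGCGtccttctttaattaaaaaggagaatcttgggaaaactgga
Cdx2 (chr5:147307250-147307499, minus strand): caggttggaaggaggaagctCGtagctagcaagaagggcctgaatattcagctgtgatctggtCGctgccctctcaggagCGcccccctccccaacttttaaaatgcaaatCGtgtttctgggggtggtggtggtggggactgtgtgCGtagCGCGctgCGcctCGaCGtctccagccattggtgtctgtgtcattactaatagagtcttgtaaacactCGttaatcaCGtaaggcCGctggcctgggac
Elf5 (chr2:103411848-103412097, plus strand): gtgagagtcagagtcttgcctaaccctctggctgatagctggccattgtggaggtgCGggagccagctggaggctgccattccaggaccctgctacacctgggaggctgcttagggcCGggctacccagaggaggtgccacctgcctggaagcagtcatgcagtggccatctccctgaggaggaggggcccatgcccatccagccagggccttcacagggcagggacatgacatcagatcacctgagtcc

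The Esx1 window held 24 CG dinucleotides, and 12% of the 32851 windows of the same kind held as many or more, with a median of 6 over all windows. The Gata3 window held 19 (as many or more in 19.7% of windows), the Cdx2 window 13 (31.5%) and the Tfap2a window 10 (37.8%). The Elf5 window held 2, and 81.2% of all windows held as many or more. Elf5 and Tfap2a each have a second annotated start, whose windows held 8 and 10. The windows shown for Esx1, Gata3 and Tfap2a, all on the minus strand, lie inside the annotated gene spans. Those spans reach to positions 137122131, 9887953 and 40738238, so that part of each gene lies upstream of its window. The CG pairs were counted on the strand shown, and since CG reads the same on the other strand the counts hold for both. These counts describe the letters of the windows, and no methylation or binding was measured in this series.

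**Figure D1:**
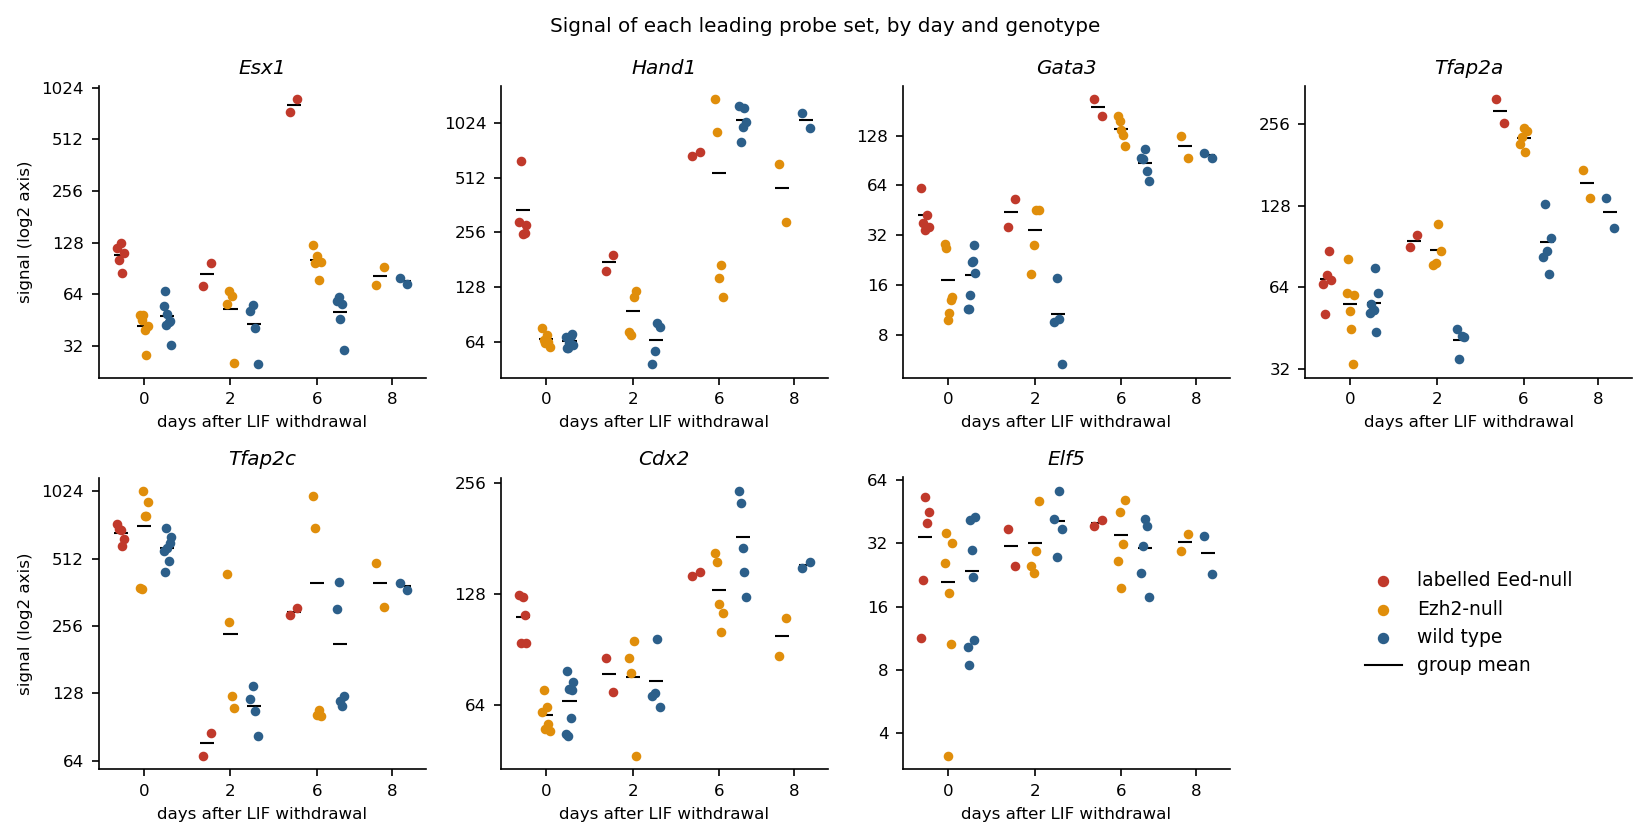
Signal of the leading probe set of each gene (y axis, signal units on a log2 scale) in every ES cell array, by days after LIF withdrawal (x axis) and genotype. Points are arrays and black bars group means. The 2 labelled Eed-null arrays of day 6 stand at 738 and 876 for Esx1, and every mutant array of day 6 stands above every wild-type array of that day for Tfap2a.

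Cdx2, the caudal-type homeobox factor that sets up the trophectoderm and later patterns the posterior body, rose during wild-type differentiation. Its signal at day 0 ran between 52.9 and 78.9 in the 7 wild-type arrays with a median of 70.2, at day 2 it was 67.9, 69.1, 96.4 and 63.3, at day 6 it was 244, 225, 171, 147 and 125, and at day 8 it was 151 and 156. All day 6 arrays lay above all day 0 arrays, and the log2 fold change was 1.11 ± 0.12 (SE, adjusted p = 4.7e-10). The rise was 1.46 in the first array set and 0.88 in the second, 1.32 within J1 and 0.84 within CJ7, the lower of each pair falling below the 2-fold minimum. These splits by set and by line largely coincide at day 6.

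In the mutants Cdx2 stood no higher than in wild-type cells at day 6. The labelled Eed-null arrays read 143 and 147 and the Ezh2-null arrays 165, 156, 120, 101 and 114, within or just below the wild-type range. The differences from wild-type cells were -0.25 ± 0.18 (SE, adjusted p = 0.38) for the labelled Eed-null cells and -0.38 ± 0.13 (SE, adjusted p = 0.034) for the Ezh2-null cells, the second past the p threshold but under 2-fold. Before differentiation Cdx2 was higher in the labelled Eed-null cells, whose 5 arrays ranged from 94.4 to 127 with none inside the wild-type range. That difference was 0.55 ± 0.12 (SE, adjusted p = 0.00045), also under 2-fold. From day 0 to day 6 Cdx2 changed by 0.32 ± 0.18 (SE, adjusted p = 0.16) in labelled Eed-null and 0.81 ± 0.13 (SE, adjusted p = 7e-07) in Ezh2-null cells, neither called in the main fit. These changes differed from the wild-type change by -0.80 ± 0.22 (SE, adjusted p = 0.0082) and -0.30 ± 0.18 (SE, adjusted p = 0.29). Against J1 alone the first was -1.01 (adjusted p = 0.0052), a call. The second Cdx2 probe set never reached its array's median and averaged 3.32 signal units, and the mean over both probe sets gave a wild-type rise of 0.70 at day 6.

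Elf5, an ETS factor of trophoblast stem cells, stayed near or under the array medians. Its leading probe set averaged 30.0 signal units over the 53 arrays, with a highest single value of 57.1 in a wild-type array of day 2, and lay above its array's median on 1 array. The labelled Eed-null arrays of day 6 read 38.9 and 41.5, the Ezh2-null arrays 26.4, 45.4, 19.6, 31.7 and 51.6, and the wild-type arrays 23.2, 31.1, 41.9, 38.7 and 17.7, so that the groups overlapped. With the filter on low signals left out, the day 6 differences from wild-type cells were 0.22 ± 0.24 (SE, adjusted p = 0.62) for labelled Eed-null and 0.09 ± 0.18 (SE, adjusted p = 0.82) for Ezh2-null cells, and none of the 21 comparisons called Elf5. The largest of its differences was 0.78 ± 0.26 (SE, adjusted p = 0.018), in neuronal stem cells over Sox1-GFP progenitors, where the 5 arrays read between 7.8 and 43.8. The other Elf5 probe set was dimmer still, with a mean of 9.26.

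Gata3, a zinc-finger factor that acts beside Cdx2 in the trophectoderm, rose at day 6 in all 3 genotypes. In labelled Eed-null cells it read 213 and 169 at day 6, against 34.4 to 62.2 (median 37.9) at day 0. In Ezh2-null cells it read 168.5, 158, 138, 129 and 111 at day 6, against 9.8 to 28.4 (median 13.2) at day 0. In wild-type cells it read 93.2, 92.4, 106, 78.6 and 67.8 at day 6, against 11.4 to 27.9 (median 19.0) at day 0. No day 6 array overlapped with day 0 of its genotype, and the log2 fold changes were 1.58 ± 0.19 (SE, adjusted p = 1.5e-08), 1.82 ± 0.14 (SE, adjusted p = 6.5e-15) and 1.25 ± 0.13 (SE, adjusted p = 1.6e-10) in that order of genotypes.

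The mutants stood above wild-type cells in Gata3 at day 6 without overlap. The difference was 0.90 ± 0.19 (SE, adjusted p = 0.00082) in labelled Eed-null and 0.53 ± 0.15 (SE, adjusted p = 0.0051) in Ezh2-null cells, both under 2-fold. The first of these rests on 2 labelled Eed-null arrays: it was 0.75 and did not pass (adjusted p = 0.064) without sample 1, the brighter, and 1.04 (adjusted p = 0.0074), past the 2-fold minimum, without sample 2. With a pseudocount of 8 it was 1.06. At day 2 the order was the same at lower signals. Gata3 then read 35.8 and 53.2 in labelled Eed-null, 18.7, 28.0, 45.4 and 45.5 in Ezh2-null, and 9.6, 17.7, 10 and 5.3 in wild-type cells, again without overlap, with differences of 0.84 ± 0.20 (SE, adjusted p = 0.0082) and 0.62 ± 0.16 (SE, adjusted p = 0.046). All of these day 2 signals except 1 value of 53.2 were under the lowest array median, so that they compare dim signals. Without labelled Eed-null sample 2 of day 2 the first difference was 0.68 and did not pass (adjusted p = 0.25), and without sample 1 it was 1.01 (adjusted p = 0.037). The second difference did not pass when any 1 of 6 of the 8 arrays was left out, with a largest adjusted p of 0.18. With a pseudocount of 8 the day 2 differences were 1.51 and 1.17, both called. At day 8 the 2 Ezh2-null arrays, 127.9 and 94.4, overlapped with the wild-type arrays, 101 and 93.9.

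The AP-2 factor Tfap2a, known for neural crest and surface ectoderm as well as trophoblast, was the only one of the 6 tested genes called higher in both mutants at day 6. Its signal was 315 and 258 in labelled Eed-null, 215, 229, 247, 201 and 241 in Ezh2-null, and 82.7, 130, 86.9, 71.4 and 97.6 in wild-type cells. The mutant arrays were all above the wild-type arrays. The log2 difference from wild-type cells was 1.35 ± 0.16 (SE, adjusted p = 3.3e-08) in labelled Eed-null and 1.05 ± 0.12 (SE, adjusted p = 5.8e-09) in Ezh2-null cells. The labelled Eed-null cells exceeded the Ezh2-null cells by 0.30 ± 0.16 (SE, adjusted p = 0.32), with a 95% interval from -0.02 to 0.62. The Ezh2-null difference lay close to the 2-fold minimum, and it fell to 0.99 without wild-type sample 4 of day 6, to 0.90 in the first array set alone, to 0.99 against J1 alone and to 0.68 with a pseudocount 4 times as large, where the labelled Eed-null difference was 0.90, each with an adjusted p under the threshold.

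With the leading probe set the mutant difference in Tfap2a was seen at day 2 and was not detected at day 0. At day 2 the signal was 90.2 and 100 in labelled Eed-null and 77.6, 78.7, 109 and 87.1 in Ezh2-null cells, against 44.9, 34.9, 42.3 and 42.1 in wild-type cells. No mutant array overlapped with wild type, and the differences were 0.80 ± 0.17 (SE, adjusted p = 0.002) and 0.71 ± 0.13 (SE, adjusted p = 0.004), both under 2-fold on this scale. With a pseudocount of 8 the first of them was 1.07 (adjusted p = 0.0013), a call. At day 0 the ranges overlapped, at 51.0 to 87.3 in labelled Eed-null, 33.3 to 81.4 in Ezh2-null and 43.7 to 75.5 in wild-type cells, with differences of 0.19 ± 0.11 (SE, adjusted p = 0.17) and -0.02 ± 0.11 (SE, adjusted p = 0.99). The change from day 0 to day 6 exceeded that of wild-type cells by 1.16 ± 0.19 (SE, adjusted p = 3.5e-05) in labelled Eed-null and by 1.08 ± 0.16 (SE, adjusted p = 5.7e-06) in Ezh2-null cells, and the mean over its 3 probe sets gave 0.90 and 0.75, both under 2-fold. By day 8 the Ezh2-null arrays, 173 and 136.7, stood just above the wild-type arrays, 136.6 and 106, and the difference of 0.28 ± 0.19 did not pass (SE, adjusted p = 0.61).

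Tfap2a has 3 probe sets, and they did not move alike. The second of them by mean signal gave day 6 differences from wild-type cells of 1.29 in labelled Eed-null and 1.21 in Ezh2-null cells, near those of the leading probe set. At day 0 it gave 0.43 (adjusted p = 0.0019) in labelled Eed-null cells, at 63.4 to 84.5 against 38 to 54 in wild-type cells, without overlap and under 2-fold. Its Ezh2-null difference at day 0 was 0.13 (adjusted p = 0.78). The third read 171 and 171 in labelled Eed-null cells, 52.0, 58.1, 193.5, 158 and 174 in Ezh2-null cells and 56.1, 65.1, 103, 119 and 117.5 in wild-type cells. The 2 low Ezh2-null and the 2 low wild-type values are the arrays of the first set, close to the wild-type day 0 range of 45.9 to 64.6. Over all arrays its Ezh2-null difference was 0.27 ± 0.20 (SE, adjusted p = 0.46), and the mean of the 3 probe sets gave 0.84. At day 2 the third probe set gave 0.55 (adjusted p = 0.31) in labelled Eed-null and 0.11 in Ezh2-null cells, neither passing.

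**Figure D2:**
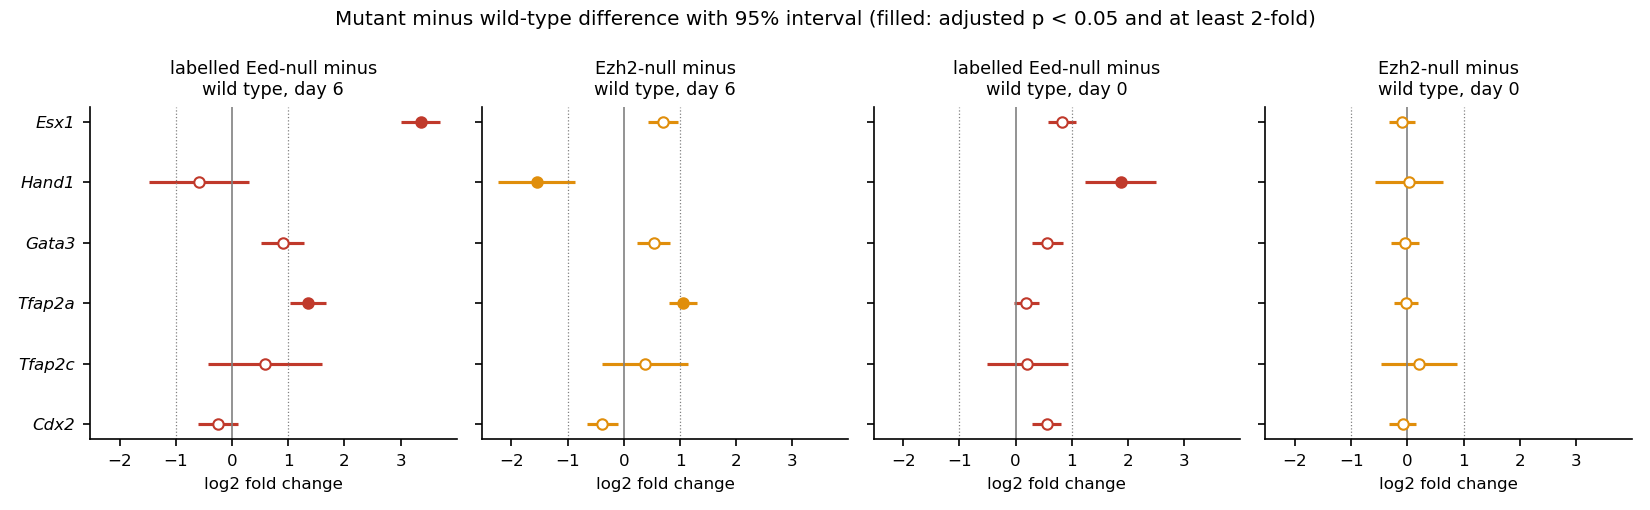
Log2 fold change between mutant and wild-type ES cells at day 6 and day 0 (x axis) for the 6 tested genes (y axis), as points with 95% intervals. Filled points passed adjusted p under 0.05 and the 2-fold minimum drawn as dotted lines. Esx1 and Tfap2a are filled for the labelled Eed-null cells at day 6, and Hand1 and Tfap2a for the Ezh2-null cells.

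The other AP-2 factor, Tfap2c, which is needed in trophoblast and in germ cells, was high in ES cells and fell on LIF withdrawal. In wild-type cells it ranged from 445 to 703 (median 570) at day 0, read 121, 138, 107 and 82.1 at day 2, 304, 403, 118.5, 112 and 124.5 at day 6, and 400 and 371 at day 8. All day 2 and all day 6 arrays lay below day 0. The log2 fold change was -2.07 ± 0.38 (SE, adjusted p = 3.9e-05) at day 2 and -1.46 ± 0.35 (SE, adjusted p = 0.00056) at day 6. Within J1 alone these were -1.72 (adjusted p = 0.062) and -0.92 (adjusted p = 0.24), and in the first array set the day 6 value was -0.65 (adjusted p = 0.028), where the day 2 value was -1.90 (adjusted p = 5.7e-07). The day 6 fall was thus called in the second set and within CJ7 and not in the first set or within J1. Set and line largely coincide at day 6, so that these are not separate checks.

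No mutant difference from wild-type cells in Tfap2c was called on any day in the fit over all arrays without the array set as a term. At day 6 the signal was 286 and 307 in labelled Eed-null cells, and 971, 702, 103, 108 and 101 in Ezh2-null cells. In both the Ezh2-null and the wild-type cells the 2 arrays of the first set lay above the 3 of the second set, the lowest of the first reading 304 and the highest of the second 124.5. Within the first set Ezh2-null cells exceeded wild-type cells by 1.17 ± 0.31 (SE, adjusted p = 0.01), and within the second set the difference was -0.15 ± 0.22 (SE, adjusted p = 0.67). The labelled Eed-null cells exceeded the wild-type arrays of the second set by 1.13 ± 0.25 (SE, adjusted p = 0.00093), against 0.59 ± 0.51 (SE, adjusted p = 0.47) over all arrays and 1.39 (adjusted p = 4e-04), a call, with the array set as a block. At day 2 the Ezh2-null difference was 0.73 over all arrays, and it was called at 1.22 (adjusted p = 0.032) in the first set alone and at 1.34 (adjusted p = 8.4e-05) with array weights. Within Ezh2-null cells the change from day 0 to day 6 was -1.29 over all arrays (not passing, adjusted p = 0.065, when only the arrays compared were fitted), -2.36 in the second set and 0.30 (adjusted p = 0.32) in the first, where the sign turned.

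The 3 probe sets of Tfap2c differed in the size of their changes. The wild-type change at day 2 was -0.89 ± 0.16 (SE, adjusted p = 3.9e-05) for the second by mean signal and -0.27 ± 0.16 (SE, adjusted p = 0.24) for the third, beside the -2.07 of the leading one. At day 6 the same probe sets gave -0.57 and -0.40. The mean over all 3 gave -1.08 at day 2 and -0.81, under 2-fold, at day 6.

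Hand1, the basic helix-loop-helix factor of trophoblast giant cells and of lateral mesoderm, made the largest rise of the 7 genes in wild-type cells. Its signal ranged from 58.8 to 71.0 (median 63.1) at day 0, read 48.1, 56.6, 80.8 and 77.3 at day 2, 1274, 806, 967, 1245 and 1041.5 at day 6, and 1163 and 960 at day 8. The rise came between day 2 and day 6, with no overlap with earlier arrays, and the log2 fold change of day 6 over day 0 was 3.49 ± 0.31 (SE, adjusted p = 9.2e-13). With the other Hand1 probe set it was 0.93 ± 0.14 (SE, adjusted p = 1e-06), under 2-fold, and the mean over both gave 2.21. That probe set read 74.5 to 239.9 at day 6 and 50.5 to 77.5 at day 0, with overlap. With the leading probe set the rise was as large in each array set (3.44 and 3.53) and in each line (3.43 in J1 and 3.65 in CJ7). Day 8 differed from day 6 by 0.01 ± 0.44 (SE, adjusted p = 1).

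In labelled Eed-null cells Hand1 was high before LIF was withdrawn. Its day 0 signal was 292, 629, 251, 254 and 280, against 58.8 to 71.0 in the 7 wild-type arrays and 59.8 to 76.7 in the 6 Ezh2-null arrays. Every labelled Eed-null array lay above all of these, and sample 2 lay far above the other 4. The difference was 1.87 ± 0.31 (SE, adjusted p = 5.6e-06) from wild-type and 1.84 ± 0.32 (SE, adjusted p = 1.5e-05) from Ezh2-null cells. At day 2 the labelled Eed-null arrays read 157 and 193, above the 4 wild-type arrays. The difference of 1.09 ± 0.46 did not pass over all arrays (SE, adjusted p = 0.18). It was called with only the arrays compared (adjusted p = 0.046) and, at 1.27, with array weights (adjusted p = 9.1e-06). At day 6 they read 672 and 712, below the 5 wild-type arrays, with a difference of -0.58 ± 0.44 (SE, adjusted p = 0.41). The change from day 0 to day 6 was smaller than in wild-type cells, with a difference between the log2 changes of -2.46 ± 0.54 (SE, adjusted p = 0.0012). With the other Hand1 probe set the day 0 difference from wild-type cells was 0.38 (adjusted p = 0.043) and the difference between the changes -0.35 (adjusted p = 0.41), and the mean over both probe sets gave 1.12 and -1.40. The change within labelled Eed-null cells with the leading probe set, 1.04 ± 0.44, did not pass over all arrays (SE, adjusted p = 0.059), and did so at 1.27 (adjusted p = 0.022) without sample 2 of day 0. It was also called with only the arrays compared (adjusted p = 0.018) and, at 1.21, with array weights (adjusted p = 2.8e-06).

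Markers of other cell types were also higher in these undifferentiated cells, in all arrays or in some. The summed signal of 14 endoderm markers was 4705 to 8432 in labelled Eed-null cells at day 0, against 2200 to 3087 in wild-type cells, without overlap. The summed signal of 16 measured fibroblast markers was 925 to 9069 against 668 to 2624, where the lowest labelled Eed-null array, sample 5, lay inside the wild-type range while its Hand1 signal was 280. MEF themselves read 55.5 and 58.5 for Hand1, and 43292 and 50830 for the fibroblast sum. The summed signal of 6 measured trophoblast markers, described below, was 378 to 595 in labelled Eed-null and 197 to 260 in wild-type cells at day 0, without overlap. The part of any of these markers in the Hand1 difference was not tested.

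In Ezh2-null cells the Hand1 result at day 6 split by array set. The signal was 1383 and 913.5 in the 2 arrays of the first set and 144, 169 and 113 in the 3 of the second, whereas the wild-type arrays read 1274 and 806 in the first set and 967, 1245 and 1041.5 in the second. Over all arrays Hand1 was called lower in Ezh2-null cells, with a log2 fold change of -1.55 ± 0.34 (SE, adjusted p = 0.00042). The call was lost when the fit held only the arrays compared (-1.55, adjusted p = 0.13). Within the second set the difference was -2.68 ± 0.20 (SE, adjusted p = 5.5e-13), and within the first it was 0.15 ± 0.27 (SE, adjusted p = 0.83), of the opposite sign. The change from day 0 to day 6 in Ezh2-null cells was 1.91 ± 0.32 over all arrays (SE, adjusted p = 1.9e-06). Against all day 0 arrays it was 3.56 in the first set and 0.81 in the second, the last under 2-fold. Its difference from the wild-type change was -1.58 ± 0.45 over all arrays (SE, adjusted p = 0.011), 0.11 (adjusted p = 0.88) in the first set and -2.72 in the second. It did not pass with only the arrays compared (adjusted p = 0.064), with J1 alone (adjusted p = 0.11) or with CJ7 alone (adjusted p = 0.095) as wild type. At day 8 the Ezh2-null arrays read 610 and 292, below the wild-type arrays at 1163 and 960. The difference of -1.25 ± 0.53 did not pass over all arrays (SE, adjusted p = 0.26). It was called with only the arrays compared (adjusted p = 0.011) and with array weights (adjusted p = 0.00068).

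Against the Ezh2-null arrays of the second set, to which they belong, the labelled Eed-null cells had more Hand1 at day 6 by 2.07 ± 0.22 (SE, adjusted p = 2.5e-08), whereas over all arrays the difference was 0.97 ± 0.44 (SE, adjusted p = 0.24). The second Hand1 probe set was far dimmer. It read 171 and 141 in labelled Eed-null, 109, 75.8, 97.2, 96.8 and 70.1 in Ezh2-null and 122, 74.5, 173, 240 and 201 in wild-type cells at day 6. Its Ezh2-null difference was -0.61 ± 0.16 (SE, adjusted p = 0.0043), under 2-fold and of the same sign as the leading probe set over all arrays. Its change from day 0 to day 6 in Ezh2-null cells was 0.22 ± 0.15 (SE, adjusted p = 0.24). In wild-type cells both first-set arrays lay below the 3 of the second set with this probe set, and in Ezh2-null cells the 2 sets overlapped.

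**Figure D3:**
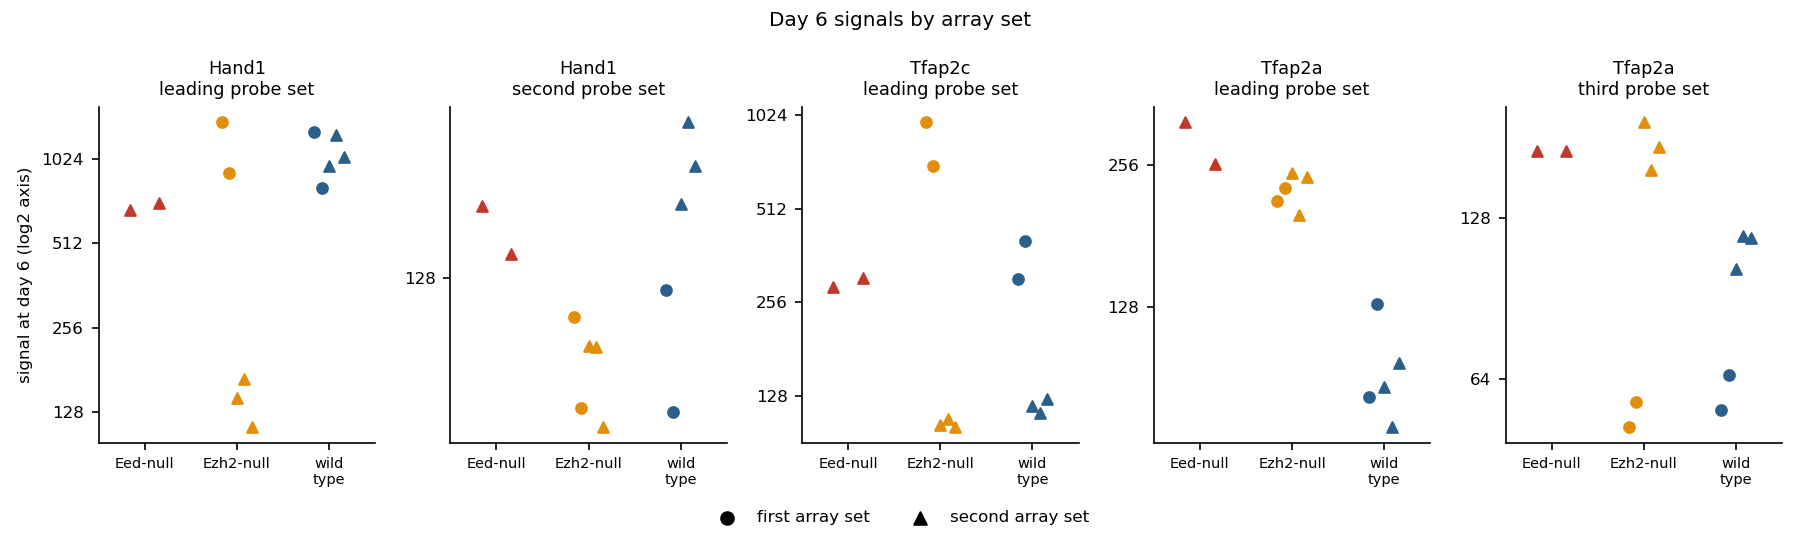
Day 6 signals (y axes, signal units on a log2 scale) of 5 probe sets in labelled Eed-null, Ezh2-null and wild-type ES cells, with circles for the first and triangles for the second array set. For the leading Hand1 probe set the 2 Ezh2-null circles stand at 1383 and 913.5 and the 3 triangles between 113 and 169. The leading Tfap2a probe set shows no such split.

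Esx1, an X-linked homeobox gene that is restricted in the mouse embryo largely to the placenta and later to the male germ line, had the largest rise over wild-type cells of the 7 genes in labelled Eed-null cells at day 6. Its signal in these cells was 119.5, 101, 127, 85.6 and 111 at day 0, 71.4 and 96.9 at day 2, and 738 and 876 at day 6. In Ezh2-null cells it ranged from 28.5 to 48.4 (median 43.65) at day 0, and read 55.9, 67.3, 62.8 and 25.5 at day 2, 124, 96.8, 108, 77.4 and 99.2 at day 6, and 72.0 and 91.7 at day 8. In wild-type cells it ranged from 32.2 to 66.8 (median 44.7) at day 0, and read 51.0, 55.3, 40.6 and 25 at day 2, 58.5, 61.4, 45.9, 55.9 and 30.3 at day 6, and 80.1 and 73.4 at day 8. Wild-type signals up to day 6 thus lay around the array medians, while the 2 labelled Eed-null arrays of day 6 lay above every other array of the series.

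At day 6 the labelled Eed-null cells exceeded wild-type cells in Esx1 by 3.36 ± 0.17 (SE, adjusted p = 4.5e-19) and Ezh2-null cells by 2.66 ± 0.17 (SE, adjusted p = 5.4e-15). The first of these was 3.47 against the wild-type arrays of the second set, 3.26 against J1 and 3.50 against CJ7. The rise from day 0 was 2.58 ± 0.17 (SE, adjusted p = 2.2e-15) and exceeded the wild-type change, 0.04 ± 0.12, by 2.54 ± 0.21 (SE, adjusted p = 1e-11). Ezh2-null cells also lay above wild-type cells at day 6 without overlap, by 0.70 ± 0.13 (SE, adjusted p = 5.8e-05), and by 0.62 in the first array set and 0.74 in the second, all under 2-fold. Labelled Eed-null cells were already above wild-type cells at day 0 by 0.82 ± 0.12 (SE, adjusted p = 5.9e-07) and at day 2 by 0.64 ± 0.18 (SE, adjusted p = 0.027), again without overlap and under 2-fold. The day 2 difference rests on 2 labelled Eed-null arrays and ran from 0.48 to 0.80 with 1 array left out. With a pseudocount of 8 in place of 32, the day 0 difference was 1.08.

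Over the 15 groups the mean Esx1 signal was 807 in labelled Eed-null cells at day 6, then 109 in the same cells at day 0, 101 in Ezh2-null cells at day 6, 84.2 in labelled Eed-null cells at day 2, 81.8 in Ezh2-null and 76.8 in wild-type cells at day 8. The groups from 109 to 76.8 overlapped with their neighbours in this order, and the remaining 9 groups averaged between 33.7 in MEF and 55.2 in neuronal stem cells, at or below the level of the array medians. The gap after the first group was the only one in this order without an overlap of arrays and larger than 2-fold.

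The calls among the 6 tested genes were counted in each comparison, beside the share called over all tested genes. A gene such as Gata3 that passed the filter through the groups where it is high had to differ somewhere. In wild-type cells 1 of 6 was called at day 2 over day 0 (3.43% of all tested genes), 4 at day 6 over day 0 (10.3%) and none at day 8 over day 6 (0.963%), where limma gave 1 an unadjusted p under 0.05. At day 6 over day 0, 3 were called in labelled Eed-null cells (Esx1, Gata3 and Tfap2a, beside 10.1% of all genes) and 4 in Ezh2-null cells (Gata3, Hand1 and Tfap2a higher, Tfap2c lower, beside 16.3%). Between labelled Eed-null and wild-type cells 1 was called at day 0 (2.26%), none at day 2 (1.04%, with 4 at an unadjusted p under 0.05) and 2 at day 6 (3.1%). Between Ezh2-null and wild-type cells none was called at day 0 (0.0507%), day 2 (0.123%) or day 8 (1.06%), and 2 were called at day 6 (3.03%). An unadjusted p under 0.05 was reached by 0, 2 and 2 of the 6 on days 0, 2 and 8. Between labelled Eed-null and Ezh2-null cells 1 was called at day 0 (2.2%) and 1 at day 6 (0.739%). For the change from day 0 to day 6 against that of wild-type cells, 3 were called in labelled Eed-null (4.69%) and 2 in Ezh2-null cells (3.09%). The comparisons with wild-type cells share the wild-type arrays and are not independent of each other.

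The other cell types were checked against their markers first. The summed mesoendoderm markers (8 measured) were 4815 to 5972 in T-GFP cells, against 1350 to 6061 in wild-type cells at day 6 and 219 to 341 at day 0. The Sox1-GFP progenitors had the highest sum of neural progenitor markers (9621 to 9900, against 3971 to 4546 in wild-type cells at day 0), the neuronal stem cells the highest sum of neural stem cell markers (20937 to 21316) and MEF the highest sum of fibroblast markers.

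T-GFP mesoendodermal cells carried 3 of these genes at high signal with their leading probe sets. Hand1 was 993 and 697 in T-GFP cells and 51.1, 62.1 and 57.6 in Sox1-GFP cells, Cdx2 was 346 and 214 against 43.7, 49.5 and 65.4, and Tfap2c was 631 and 569 against 26.9, 23.4 and 25.7. None of these overlapped, and the differences were 3.28 ± 0.49 (SE, adjusted p = 6.1e-07) for Hand1, 1.85 ± 0.19 (SE, adjusted p = 2.3e-10) for Cdx2 and 3.46 ± 0.55 (SE, adjusted p = 2.7e-06) for Tfap2c. Thus 3 of 6 tested genes were called beside 10.3% of all genes. Their other probe sets gave smaller differences, 0.51 (adjusted p = 0.096) for Hand1, 0.54 for Cdx2, and 0.91 and 1.39 for Tfap2c, of which only 1.39 was called. The means over all probe sets gave 1.9 for Hand1, 1.2 for Cdx2 and 1.92 for Tfap2c. Gata3 was 181 and 72.4 in T-GFP cells, against 55.5, 36.7 and 46.6 in Sox1-GFP cells, and its difference of 0.94 ± 0.21 (SE, adjusted p = 0.00044) ran from 0.42 (adjusted p = 0.2) without the brighter to 1.45 without the dimmer T-GFP array, so that it rests on which of the 2 is kept. Tfap2a was 76.7 and 97.1 in T-GFP cells and 156, 162 and 127 in Sox1-GFP cells, a log2 fold change of -0.60 ± 0.17 (SE, adjusted p = 0.006).

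Against wild-type cells at day 6, none of the 6 was called in T-GFP cells (0.659% of all genes), and 2 had an unadjusted p under 0.05. Cdx2 was highest of all 15 groups in T-GFP cells, with a difference of 0.54 ± 0.18 (SE, adjusted p = 0.081), and Tfap2c lay above all 5 wild-type arrays with 1.53 ± 0.51 (SE, adjusted p = 0.081). The Tfap2c difference was 2.07 (adjusted p = 1.5e-07) against the second array set alone and 0.72 (adjusted p = 0.14) against the first. Without wild-type sample 2 of day 6 it was 1.78 (adjusted p = 0.035). Esx1 stayed at 49.7 and 48.5 in T-GFP cells, inside the wild-type range.

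In Sox1-GFP progenitors the AP-2 genes went opposite ways, Tfap2c lower and Tfap2a higher than in ES cells. With its leading probe set Tfap2c was 25.3 ± 1.78 signal units (SD, n = 3) in Sox1-GFP progenitors, 9.35 ± 1.20 (SD, n = 2) in neuronal stem cells and 48.8 ± 10.3 (SD, n = 2) in MEF. These were all under the array medians, against 574 ± 85.8 (SD, n = 7) in wild-type ES cells at day 0. The second probe set by mean signal averaged 149, 115 and 170 in the same 3 cell types, and it lay above the median on all 53 arrays. The difference from wild-type ES cells was -3.39 ± 0.42 (SE, adjusted p = 4.3e-09) in the progenitors and -2.90 ± 0.49 (SE, adjusted p = 1.9e-06) in MEF, in which it was the 1 gene of 6 called (24.1% of all genes). Tfap2a was 148 ± 18.6 (SD, n = 3) in the progenitors, above all 7 wild-type ES arrays, with a difference of 1.04 ± 0.13 (SE, adjusted p = 8.5e-09), so that 2 of 6 were called there (13.4% of all genes). The Tfap2a difference fell under the 2-fold minimum, still with an adjusted p under the threshold, without Sox1-GFP sample 2 (0.98), without wild-type sample 6 of day 0, with arrays centred on their median (0.95), under quantile normalisation (0.86), over the mean of its probe sets (0.74) and with a pseudocount 4 times as large (0.59). Between neuronal stem cells and Sox1-GFP progenitors none of the 6 was called (14.3% of all genes), although 3 had an unadjusted p under 0.05. Among them Gata3 differed by -0.76 ± 0.21 (SE, adjusted p = 0.0028) and Tfap2a by -0.49 ± 0.17 (SE, adjusted p = 0.021), both under 2-fold.

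**Figure D4:**
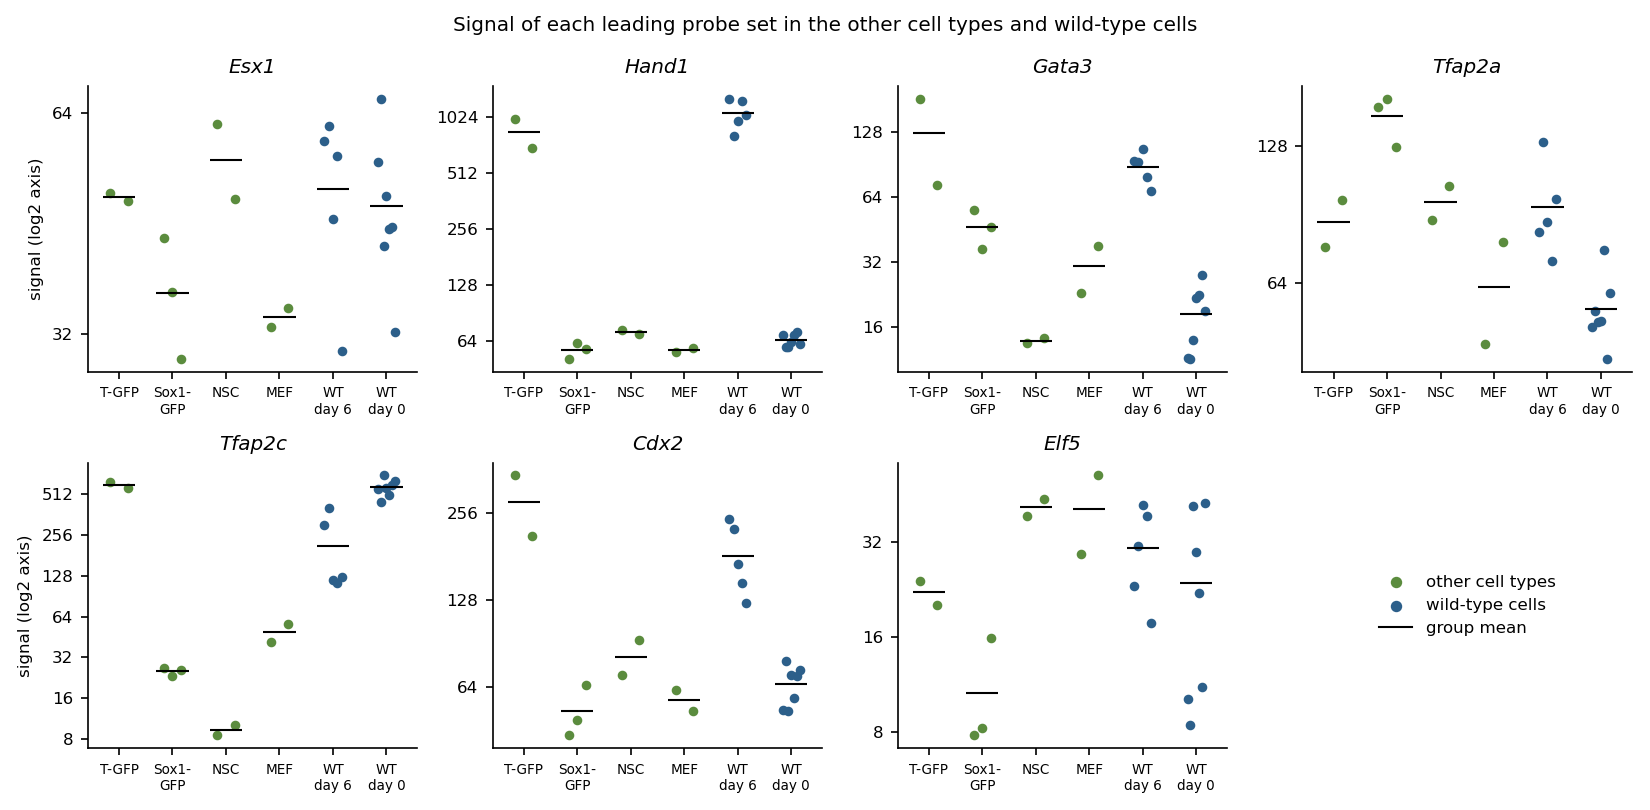
Signal of the leading probe set of each gene (y axis, signal units on a log2 scale) in T-GFP mesoendodermal cells, Sox1-GFP neuronal progenitors, neuronal stem cells (NSC), MEF and wild-type (WT) ES cells at days 6 and 0. Points are arrays and bars group means. Hand1 stands at 697 and 993 in T-GFP cells and between 51.1 and 72.7 in the progenitors, NSC and MEF.

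Other genes of the lineages in which these factors work were taken from 4 lists. Of 20 tested placental lineage genes, 5 were called higher and 2 lower in labelled Eed-null than in wild-type cells at day 6, with a median log2 difference of 0.29 beside 0 over all genes, of which 3.1% were called. In Ezh2-null cells 2 were higher and 2 lower, with a median of 0.14 beside 0 and 3.03% of all genes called. Krt7, a keratin of simple epithelia and trophoblast, was higher in both (2.58 ± 0.27, adjusted p = 2.7e-09, and 1.47 ± 0.21, adjusted p = 4.3e-07, with SE), as was the X-linked homeobox gene Rhox6 (2.19 ± 0.58, adjusted p = 0.0069, and 1.29 ± 0.44, adjusted p = 0.025, with SE). Ascl2, a basic helix-loop-helix factor of the spongiotrophoblast, was higher in labelled Eed-null cells by 1.19 ± 0.16 (SE, adjusted p = 6.7e-07). Cited1, a placental transcription co-regulator, was lower in both (-1.02 ± 0.25, adjusted p = 0.0037, and -1.95 ± 0.19, adjusted p = 1.8e-10, with SE), and the imprinted gene Phlda2 was lower in Ezh2-null cells (-2.25 ± 0.41, adjusted p = 4e-05, with SE). Already at day 0, 5 placental genes were called higher in labelled Eed-null cells, among them Rhox6 at 2.45 ± 0.41 (SE, adjusted p = 5.1e-06) and Rhox9 at 1.92 ± 0.25 (SE, adjusted p = 4.1e-08), with a list median of 0.32 beside 0.04 and 2.26% of all genes called.

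Of 19 tested trophoblast stem cell genes, 1 was higher and 1 lower in each mutant at day 6, where 3.1% of all genes were called in labelled Eed-null and 3.03% in Ezh2-null cells. The higher one was Esrrb, an orphan receptor that ES cells share (2.37 ± 0.36 in labelled Eed-null, adjusted p = 4.2e-06, and 1.76 ± 0.27 in Ezh2-null cells, adjusted p = 2.7e-06, with SE). The lower one was Eomes, a T-box factor that the primitive streak shares (-3.21 ± 0.41, adjusted p = 2e-07, and -3.05 ± 0.31, adjusted p = 5.4e-10, with SE). The list medians were 0.37 and 0.15 beside 0.

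Of 25 tested primitive streak and mesoderm genes, 13 were called lower at day 6 in labelled Eed-null cells (median -1.05, with 3.1% of all genes called) and 12 in Ezh2-null cells (median -0.93, with 3.03% called), beside a median of 0 over all genes, and none was called higher. In wild-type cells 18 of the 25 had been called higher at day 6 over day 0, with a median of 1.85 beside 0.04 and 10.3% of all genes called. Mixl1, a homeobox factor of the streak, was lower in both (-3.90 ± 0.40, adjusted p = 1.2e-09, and -3.53 ± 0.30, adjusted p = 4.1e-12, with SE). The apelin receptor Aplnr gave -4.34 ± 0.18 (SE, adjusted p = 1e-22) and -3.79 ± 0.13 (SE, adjusted p = 3.2e-25). Of 15 tested surface ectoderm and neural crest genes, the other tissues of Tfap2a, limma called none in either mutant at day 6, with 8 and 5 at an unadjusted p under 0.05 (medians 0.44 and 0.18 beside 0).

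A set of 10 trophoblast markers, of which 6 were measured, was summed per array. It shares genes with the placental list, among them Krt7 and Ascl2, so that it is not independent of the counts above. The sum at day 6 was 2175 and 2245 in labelled Eed-null, 850 to 1442 in Ezh2-null and 398 to 686 in wild-type cells, without overlap. At day 0 it was 378 to 595 in labelled Eed-null, 198.4 to 254.5 in Ezh2-null and 197 to 260 in wild-type cells. Krt7 made up most of the day 6 sum in labelled Eed-null cells, at 1670 signal units. Ctsq, a protease gene of the labyrinth, lay above its array's median on none of these arrays, and Tpbpa, a marker of the spongiotrophoblast, averaged 74.0 in labelled Eed-null, 60.2 in Ezh2-null and 63.2 in wild-type cells at day 6. The markers of undifferentiated ES cells were also higher in labelled Eed-null than in wild-type cells at day 6, at 17868 and 17900 against 6769 to 9156, and their part in these results was not tested.

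Across the 15 group means, the genes of the 7 were compared with each other and with the 8713 tested genes that spanned at least 1 log2 unit. Pearson's r between Cdx2 and Hand1 was 0.91, between Gata3 and Hand1 0.84, and between Gata3 and Tfap2a 0.82, over groups that share lines, days and arrays. Esx1 was most like Ccdc186 (0.91), Stk25 (0.91) and Lrrc19 (0.90), Cdx2 like Wnt10a (0.93), Cited1 (0.92) and Hand1 (0.91), and Tfap2a like Pgrmc1 (0.91), Kctd1 (0.89) and Hpcal1 (0.88). Tfap2c was most like Tbx3 (0.92), Nid2 (0.90) and Hook2 (0.89), Gata3 like Peg3 (0.97), Msx2 (0.95) and Hoxd9 (0.95), and Hand1 like Dkk1 (0.96), Gata6 (0.94) and Foxq1 (0.93). For Esx1 these values rest largely on the 1 group in which it was high.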

How the data were processed

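Biotinylated cRNA was made from Trizol-extracted total RNA, per the labels' protocols. The files deposited by the authors hold linear intensity values, 1 for each probe set on each array, and the sources used here do not say how these were summarised or scaled. The log2(value + 32) medians of the arrays spanned 0.204, and the deposited values were used unchanged. Precision is limited by the small number of arrays in a group.

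Of 45037 probe sets, 34945 had 1 gene symbol in the platform annotation, and the one with the highest mean stood for its gene. The 13807 genes above their array's median on at least 2 arrays were tested with limma 3.58.1 (R 4.3.3) on log2(value + 32), with 15 group means over 53 arrays. The fit had 38 residual and 4.6 prior degrees of freedom, and p-values were adjusted by Benjamini-Hochberg separately in each of 21 comparisons. On simulated data of 13807 genes, changes of 1.5 log2 units were recovered in 97.9% of genes for labelled Eed-null minus wild type at day 6, and in 99.5% for Ezh2-null minus wild type. The simulated noise was normal and independent between arrays, with no array sets, cell lines or paired replicates. These shares check the fit and do not give its recovery in data split by array set.

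The genes, lists and tests were chosen with earlier results of these data known. The text names the 7 genes, Ezh2 and Eed, up to 4 called genes with the smallest p per list and comparison described, the 3 genes most like each of the 6 tested ones, and the markers Ctsq and Tpbpa, chosen after their values were seen. Replicate numbers of Ezh2-null and wild-type arrays paired at day 2 (r 0.57 to 0.70 between deviations from group means over 4 pairs) and day 6 (0.38 to 0.72 over 5 pairs), where the array sets follow the numbers, and not at day 0 or day 8. Alternatives covered scaling, pseudocount, filter, probe set choice, array set, cell line, replicate block and each array left out.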

Additional observations from a re-analysis of the deposited data

Results flagged for a closer look

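Among 49 groups of 4 to 10 arrays tested for a single array far from the others, 2 stood out, about as many as a 95% critical value gives by chance. Hand1 read 629.1 signal units in labelled Eed-null sample 2 of day 0, against 251.3 to 292 in the other 4 arrays. Gata3 read 62.2 in labelled Eed-null sample 1 of day 0, against 34.4 to 42.3 in the others. Both belong to the group in which the sum of fibroblast markers was also widest, at 9069 in sample 1 and 6291 in sample 2, and their part in these values was not tested.

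In 5 cases the change from day 0 to day 6 differed between a mutant and wild-type cells by the interaction test. The difference between the log2 changes was 2.54 for Esx1, 1.16 for Tfap2a and -2.46 for Hand1 in labelled Eed-null cells, and 1.08 for Tfap2a and -1.58 for Hand1 in Ezh2-null cells.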

How the results depend on the processing

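Calls among the 6 tested genes were counted over families of comparisons, comparisons that a setting did not refit keeping their calls: 12 over time, 5 mutant against wild type, 2 between the mutants, 5 interactions and 6 between cell types. Leaving out any 1 array kept each count within 1.5 times. Among the single values under the alternatives, 96 became calls, 41 lost them and 3 called values changed sign. Those 3 came from the first array set alone, namely 0.15 for Hand1 and its Ezh2-null difference at day 6, 0.11 for its interaction, and 0.30 for Tfap2c from day 0 to day 6 in Ezh2-null cells. The cause was not tested.

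With no minimum fold the counts were 17 for mutant against wild type, 5 between the mutants, 8 interactions and 11 between cell types, and with a 1.5-fold minimum they were 13 for mutant against wild type, 5 between the mutants and 10 between cell types. A pseudocount of 8 gave 10 for mutant against wild type and 4 between the mutants, and a pseudocount 4 times the main one gave 6 over time, 3 for mutant against wild type and 3 interactions. Array weights gave 8 for mutant against wild type and 4 between the mutants, the array set as a block gave 4 between the mutants, the second array set alone 4, the first alone 3 interactions, and the mean of all probe sets 3 interactions. The replicate block gave 12, 5, 2, 5 and 7 in the order of the families above, and at day 8, where the numbers did not pair, the crossed block, chosen after seeing the data, called 143 genes against 147.

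Sensitivity to dim signals limits Elf5, Gata3 at days 0 and 2, and Esx1 in wild-type cells, whose signals lie near or under the array medians. The labelled Eed-null cells have 2 arrays at each of days 2 and 6, all in the second array set.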
